A study of Mus musculus with 6 samples.

Results

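The 10 genes described here attract or equip neutrophils and were followed through 6 infarcted mouse hearts. They are Cxcl1, Cxcl2, Cxcl5, Cxcr2, S100a8, S100a9, Ly6g, Retnlg, Csf3r and Ngp, chosen by name, and all 10 were among the 26012 genes of the deposited expression table. Each heart came from a male C57BL/6 mouse of 8 weeks that underwent myocardial infarction (MI) by ligation of the left anterior descending (LAD) coronary artery. In the same surgery, 3 hearts received an intra-cardiac injection of control mimic and 3 received miR-19a/19b mimic, 10 μg per heart, in a lipid delivery reagent. Ventricular tissue was collected 4 days after MI, so all 6 hearts carried the infarct and the injection, and uninjured hearts were not compared here. The question asked of these libraries was how miR-19a/19b mimics changed gene expression, immune response genes included, early after MI.

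Neutrophils are short-lived white blood cells made in the bone marrow, and they enter the infarcted heart early, ahead of most monocytes. Chemokines of the CXC type (Cxcl1, Cxcl2 and Cxcl5 in the mouse) are released by stromal cells, endothelial cells and leukocytes of injured tissue and draw neutrophils in through the receptor Cxcr2. Granulocyte colony-stimulating factor acts on the receptor Csf3r to drive neutrophil production and survival. S100a8 and S100a9 form calprotectin, the most abundant protein pair of the neutrophil cytosol and an alarmin once released. Ly6g is the surface protein by which mouse neutrophils are stained, Retnlg is a small secreted protein of the resistin family, and Ngp is a granule protein whose mRNA is made in immature neutrophils of the marrow. Granule protein mRNAs are largely made in the marrow and decline as the cell matures, so a neutrophil in tissue holds many granule proteins with little of their mRNA. Of the 10 genes, Ngp codes for a classical granule protein, and the others are chemokines, receptors, cytosolic, surface or secreted proteins.

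The mimics are synthetic RNAs that act as the mature miRNA. The mature sequences of both miRNAs (RefSeq, GRCm38.p6) are shown because their seed, bases 2 to 8 in capitals, is what pairs with target mRNAs.
mmu-miR-19a-3p: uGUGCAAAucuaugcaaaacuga
mmu-miR-19b-3p: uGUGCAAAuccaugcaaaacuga
Counted from the 5′ end of miR-19a, the sequences differed at 1 position (U11C) and shared the seed. Mir19a lies at chr14:115044048-115044070 on the plus strand, Mir19b-1 at chr14:115044358-115044380 on the plus strand, and the second copy, Mir19b-2, at chrX:52741991-52742013 on the minus strand. A match to the seed was searched in the longest annotated 3′ UTR of each gene (GENCODE M21). It was either TTTGCAC, the 7 bases opposite bases 2 to 8, or TTGCACA, which lacks the first T and ends in an A. Of the 10 genes, 1, Retnlg, held a match, in the form TTTGCAC. It began at base 139 of the 152 bases of the Retnlg 3′ UTR, and the 22 bases around it are given with the match in capitals.
Retnlg site: ataaagacaaaTTTGCACgtgt
Among the tested genes with an annotated 3′ UTR, 3070 of 15866 (19.35%) held a match of either form. A match is a description of letters and was not tested as a target site.

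The libraries held 19398196 to 23645308 reads on genes, and mitochondrial genes took 3.18% to 6.93% of them. Values are normalized counts (reads divided by a size factor of the library), and 1 read was worth 0.864 to 1.11 normalized counts. The group comparison used limma on the log2 scale, after adding 1 to each normalized count, for 21126 genes whose mean was 1 or more, with Benjamini-Hochberg adjustment over all of them. All 10 genes passed that filter, Ly6g close to its limit and Ngp through 1 control heart. With an adjusted p under 0.05 as the threshold, 0 of the 10 genes were lower and 0 were higher in the miR-19a/19b mimic-injected hearts, and the share called was 0.0% of all genes in either direction. The adjusted p was 0.9996 for each of the 10 genes (limma). Without adjustment, 1 of the 10, Retnlg, was lower at p under 0.05 and 0 were higher, where 555 genes (2.63%) were lower and 293 (1.39%) were higher among all tested. The 3 samples of a group are labelled as replicates, and the study's methods call them biological replicates. For a single gene the smallest exact two-sided permutation p that 3 hearts against 3 allow is 0.1. In tissue RNA, fewer cells of a type and less RNA per cell cannot be told apart.

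**Figure D1:**
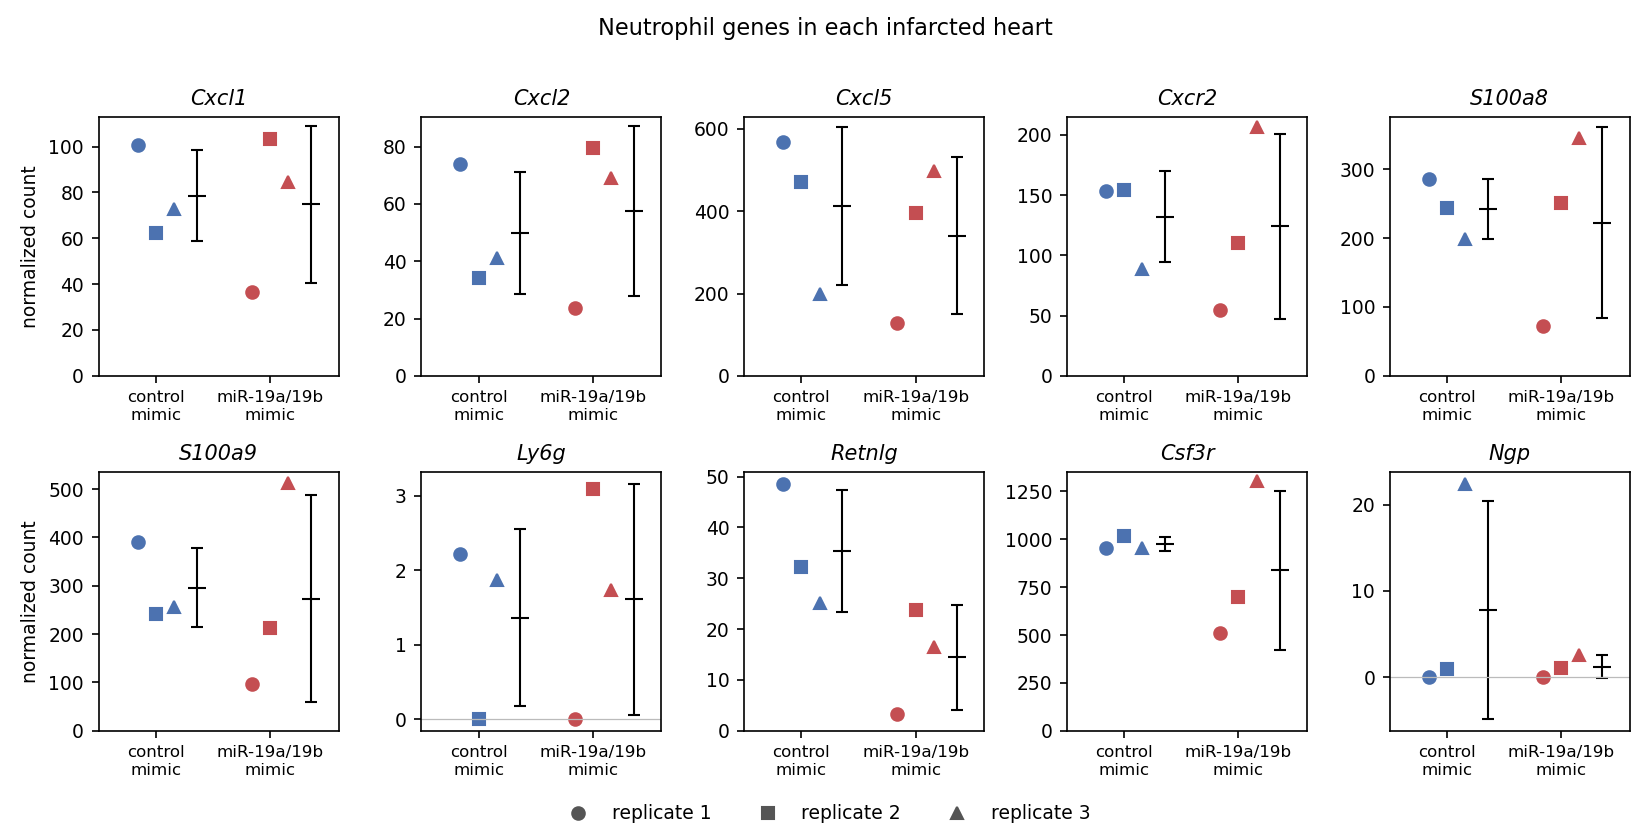
Normalized count of each of the 10 neutrophil genes (vertical axes, each from its own scale) in the 3 control mimic hearts (blue) and the 3 miR-19a/19b mimic hearts (red), with symbols for the replicate number and the group mean ± SD in black. The circle of miR-19a/19b mimic replicate 1 is at the bottom of its panel for all 10 genes, at 0 for Ly6g and Ngp.

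The chemokine ligands lie together on chromosome 5 (plus strand, GRCm38), Cxcl5 (ENSMUSG00000029371) at chr5:90759360-90761624, Cxcl1 (ENSMUSG00000029380) at chr5:90891241-90893115 and Cxcl2 (ENSMUSG00000058427) at chr5:90903871-90905938. Cxcl1 had 101, 62.5 and 72.9 normalized counts in the control mimic hearts and 36.6, 103 and 84.7 in the miR-19a/19b mimic hearts, in the order of the replicate numbers. Both the lowest and the highest heart were mimic-injected and the groups overlapped, with means of 78.6 ± 19.7 and 74.8 ± 34.3 (SD, n = 3 each). The log2 fold change, mimic minus control, was −0.17 (SE 0.37, 95% interval −1.003 to 0.67).

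Cxcl2, a close relative of Cxcl1, had 74.1, 34.2 and 41.1 normalized counts in control hearts and 23.7, 79.4 and 69.2 in mimic-injected hearts. The 6 hearts fell in the same order for Cxcl2 as for Cxcl1, from replicate 1 of the mimic group at the bottom to replicate 2 of that group at the top. It was the only gene of the 10 with a fold change whose group difference was positive, at 0.11 on the log2 scale (SE 0.46, 95% interval −0.94 to 1.16). Cxcl2 shares 98.3% of 116 aligned bases with Cxcl3, so some reads of this pair could have been counted on the other gene or on neither.

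Cxcl5, the ligand with the highest count, had 569, 470 and 198 normalized counts in control hearts and 129, 395 and 499 in mimic-injected hearts. The range was wide in both groups, 2.87-fold among controls and 3.86-fold among mimic-injected hearts, and the groups overlapped. Its log2 fold change was −0.35 (SE 0.52, 95% interval −1.53 to 0.83).

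The promoters of Cxcl1 and Cxcl2 are shown because these neighbours share a motif, and whether the motif bears on their counts was not tested. Each run covers 250 bases before to 50 bases after the RefSeq start (GRCm38.p6, plus strand), Cxcl1 at chr5:90890995-90891294 and Cxcl2 at chr5:90903649-90903948, with matches to GGAANTTCC in capitals.
Cxcl1 promoter: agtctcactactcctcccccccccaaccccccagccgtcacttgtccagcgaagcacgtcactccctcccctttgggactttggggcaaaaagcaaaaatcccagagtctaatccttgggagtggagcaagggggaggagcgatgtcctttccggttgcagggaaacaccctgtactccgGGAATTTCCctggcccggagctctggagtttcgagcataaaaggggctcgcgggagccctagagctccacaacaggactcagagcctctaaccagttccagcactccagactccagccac
Cxcl2 promoter: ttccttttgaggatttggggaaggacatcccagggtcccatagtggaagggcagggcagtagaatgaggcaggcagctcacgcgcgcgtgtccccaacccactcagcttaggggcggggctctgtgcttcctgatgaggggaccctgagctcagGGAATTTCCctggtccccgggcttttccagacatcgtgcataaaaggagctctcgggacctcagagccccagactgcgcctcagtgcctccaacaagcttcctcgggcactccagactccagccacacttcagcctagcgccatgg
GGAANTTCC, the core of many sites of the inflammatory factor NF-κB, reads the same on both strands, and it began 70 bases before the start of Cxcl1 and 96 bases before that of Cxcl2. Among promoters of this length, 305 of 32851 (0.928%) held it, and none of the other 7 genes with a promoter in the RefSeq table did. TTGCNNAA, searched on both strands as a form of the site of C/EBP factors, which act in granulocyte development, was found in S100a9, Ly6g, Retnlg and Ngp and in 10.8% of all promoters. TATAAA, also searched on both strands, was found in S100a8, S100a9 and Ly6g and in 13.6% of all promoters. For Cxcl5 no promoter was used here.

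The receptors also overlapped between groups. Cxcr2 (ENSMUSG00000026180, chr1:74153989-74161246, plus strand), the receptor of the 3 ligands, had 154, 154 and 88.8 normalized counts in control hearts and 54.9, 110 and 207 in mimic-injected hearts. The lowest and the highest heart were again both mimic-injected, and the log2 fold change was −0.25 (SE 0.43, 95% interval −1.22 to 0.73). A repeat of 170 bases in its transcripts is 98.2% identical to Gm48610.

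Csf3r (ENSMUSG00000028859, chr4:126024550-126044440, plus strand), the granulocyte colony-stimulating factor receptor, was the gene of the 10 with the most reads. Control hearts had 957, 1016 and 954 normalized counts, a spread of 3.58% (CV) that hardly exceeded the 3.20% expected from counting reads alone. The mimic-injected hearts had 510, 697 and 1307 normalized counts, with 2 hearts below all 3 controls and 1 above them. Their CV was 49.7%, where counting alone gives 3.36%. The log2 fold change was −0.33 (SE 0.28, 95% interval −0.97 to 0.31). Csf3r shares 97.3% of 560 aligned bases with AC105061.2, so its count may be missing some reads. When miR-19a/19b mimic replicate 3 was left out, Csf3r was called lower (log2 fold change −0.71, adjusted p = 0.0215, limma), as were 164 of the 21202 genes tested without that heart (0.774%).

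The calprotectin genes S100a8 (ENSMUSG00000056054, chr3:90668978-90670035, plus strand) and S100a9 (ENSMUSG00000056071, chr3:90692632-90695721, minus strand) are neighbours on chromosome 3. S100a8 had 285, 243 and 198 normalized counts in control hearts and 72.1, 251 and 345 in mimic-injected hearts. S100a9 had 391, 241 and 257 in control hearts and 95.8, 212 and 513 in mimic-injected hearts. For both genes miR-19a/19b mimic replicate 1 was lowest, replicate 3 of the same group was highest, and control mimic replicate 1 came next, so the groups overlapped. From the lowest to the highest heart, S100a9 spanned 1.62-fold among controls and 5.35-fold among mimic-injected hearts, and S100a8 spanned 1.44-fold and 4.78-fold. Group means were 242 ± 43.6 and 223 ± 139 for S100a8 and 296 ± 82.5 and 274 ± 215 for S100a9 (SD, n = 3). The log2 fold changes were −0.38 (SE 0.48) for S100a8 and −0.40 (SE 0.50) for S100a9.

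Retnlg (ENSMUSG00000022651, chr16:48872608-48874498, plus strand), the resistin-like gene with the seed match printed above, was the gene of the 10 whose groups did not overlap. It had 48.6, 32.2 and 25.2 normalized counts in control hearts and 3.23, 23.7 and 16.4 in mimic-injected hearts. The value of miR-19a/19b mimic replicate 1 rested on 3 reads, the floor used here. With a minimum of 10 counts in every heart, Retnlg could not be tested. The highest mimic-injected heart lay just under the lowest control. The log2 fold change was −1.52 (SE 0.61, 95% interval −2.90 to −0.14, unadjusted p = 0.0341 and adjusted p = 0.9996, limma). Groups did not overlap for 5.3% of all tested genes in the lower and 3.9% in the higher direction. Leaving out miR-19a/19b mimic replicate 1 brought the log2 fold change to −0.76.

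Ly6g and Ngp were at the limit of these libraries. Ly6g (ENSMUSG00000022582, chr15:75155240-75159126, plus strand) rested on 2, 0 and 2 reads in the control hearts and 0, 3 and 2 in the mimic-injected hearts. No heart exceeded 3 reads, so no fold change is given, and a difference was not detectable at this depth. Ly6g shares 90.7% of 118 bases with Ly6a and 90.3% of 124 bases with Ly6c2. Ngp (ENSMUSG00000032484, chr9:110419747-110423012, plus strand) had 0, 1 and 24 reads in the control hearts and 0, 1 and 3 in the mimic-injected hearts. Control mimic replicate 3 thus held nearly all its reads, and without that heart Ngp fell under the filter. The log2 fold change was −0.89 (SE 1.104, 95% interval −3.39 to 1.61), and edgeR's quasi-likelihood test on the reads gave −2.53 (adjusted p = 0.9998).

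Compared per kilobase of the gene length listed with each gene, the mean level over the 6 hearts was highest for S100a9 (546 normalized counts per kb), followed by S100a8 (335), Csf3r (251) and Cxcl5 (202). Cxcr2 (42.0), Retnlg (41.0), Cxcl1 (40.9) and Cxcl2 (25.9) formed a lower tier, and Ngp (3.69) and Ly6g (1.57) were near the floor. S100a9 was above S100a8 in all 6 hearts. S100a8 and Csf3r changed order between hearts, as did Csf3r and Cxcl5, Cxcr2 and Retnlg, and Retnlg and Cxcl1. Levels of different genes were not tested against each other, and Retnlg rested on 3 reads in miR-19a/19b mimic replicate 1. S100a8 was above Cxcl5, and Cxcl1 above Cxcl2, in all 6 hearts. Within each heart, Cxcl5 was above every gene of the lower tier.

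The spread between hearts was larger in the mimic group. The SD of log2(normalized count + 1) was wider among the miR-19a/19b mimic hearts for 9 of the 10 genes, where 61.7% of all tested genes were wider in that group. The median SD of the 10 genes was 0.46 among control hearts and 0.99 among mimic-injected hearts, beside 0.19 and 0.27 for all tested genes. Ngp, with its single high control, was the exception (2.39 and 0.92), and Ly6g, counted among the 9, had at most 3 reads in any heart. Of the 8 genes with a mean of at least 20, all were wider in the mimic group, as were 67.1% of the 14184 tested genes above that mean. The median SD of these 8 genes was 0.42 in control and 0.99 in mimic-injected hearts. The median CV of the 10 genes was 31.2% in control and 62.1% in mimic-injected hearts. With 3 hearts in a group, the difference between the spreads was given as a description and not tested.

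**Figure D2:**
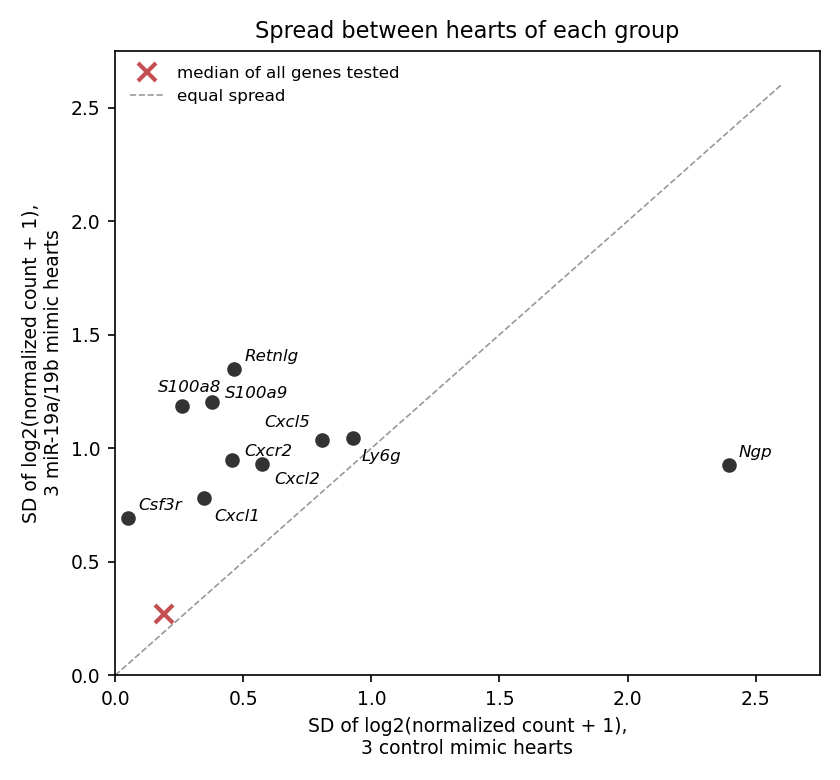
Standard deviation (SD) of log2(normalized count + 1) between the 3 control mimic hearts (horizontal axis) and between the 3 miR-19a/19b mimic hearts (vertical axis) for each of the 10 genes, with the median of all tested genes as a cross and equal spread as a dashed line. Apart from Ngp, the points lie above the line, from Csf3r (0.05 and 0.69) to Retnlg (0.47 and 1.35).

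That spread followed individual hearts. All 10 genes were at their lowest, ties at 0 included, in miR-19a/19b mimic replicate 1, as were 19.8% of all tested genes. Replicate 3 of the same group held the highest value of 4 genes (Cxcr2, S100a8, S100a9 and Csf3r), and 22.7% of all tested genes were highest there. Replicate 2 held the highest value of Cxcl1, Cxcl2 and Ly6g. The summed normalized counts of the 10 genes were 2582, 2254 and 1859 in the control hearts and 925, 1875 and 3045 in the mimic-injected hearts. The 3 controls thus lay between the first and the third mimic-injected heart. Csf3r was the largest part of that sum in every heart.

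For 6 of the 9 genes with a fold change, the sign of the group difference depended on which hearts were kept. Among the 9 genes with a fold change, 8 were negative and 1 positive, with a median of −0.35 on the log2 scale beside 0.00 for all tested genes. Without miR-19a/19b mimic replicate 1, 6 of the 9 were positive and the median was 0.24. Without replicate 3 of that group, all 9 were negative, the median was −0.73 and Csf3r alone was called. Retnlg was negative in every fit with 1 heart left out, and so was Csf3r, by as little as −0.03 without miR-19a/19b mimic replicate 1. Ngp could not be tested without control mimic replicate 3, which held nearly all its reads, so its sign in the other fits supports nothing.

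**Figure D3:**
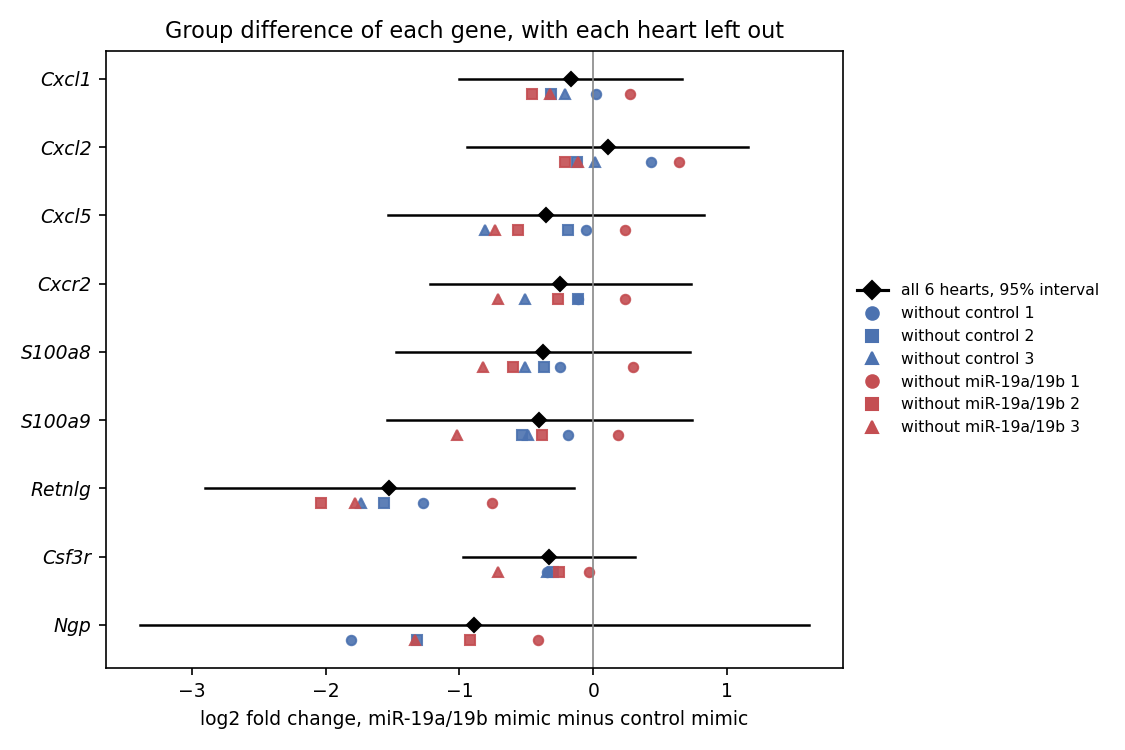
Difference between groups for the 9 genes with a fold change (horizontal axis, log2, mimic minus control) from all 6 hearts with its 95% interval (black) and with each heart left out in turn (coloured symbols below, with no point for Ngp without control mimic replicate 3). The red circles, without miR-19a/19b mimic replicate 1, lie farthest to the right, from −0.76 for Retnlg to 0.64 for Cxcl2.

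The genes around these 10 were described through 8 neutrophil and pathway lists, chosen like the 10 genes with earlier results of these data known. The lists also hold genes of other cells, such as S100a6, S100a10, S100a11, Ackr1, Pf4 and Ppbp, so their pooled values are not those of neutrophils alone. Together, and without the 10, the lists held 85 genes in the table, of which 74 were tested. Of these 74, 0 passed the adjusted threshold (limma), 5 were lower and 1 was higher at an unadjusted p under 0.05, and the median log2 fold change was −0.14 with 53 negative and 21 positive. Among all tested genes, 2.63% were lower and 1.39% higher at that threshold, and 49.2% had a negative log2 fold change. DESeq2's Wald test and edgeR's exact test on the recovered reads each called 1 of them, Slfn4, lower (adjusted p = 0.0230 with DESeq2 and 0.0420 with edgeR).

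Of the 9 tested ligands and receptors around Cxcr2, 1 was lower without adjustment, Cxcr1, which rested on at most 6 reads per heart. Cxcl3, a further Cxcr2 ligand, had 75.2, 50.7 and 27.1 normalized counts in control hearts and 24.7, 82.5 and 86.4 in mimic-injected hearts. The platelet chemokines Pf4 and Ppbp were highest in miR-19a/19b mimic replicate 3 (4636 and 581), and Ackr1, an endothelial chemokine-binding receptor, ranged from 18.2 to 34.4 over the 6 hearts. The list's median was −0.17, the members Cxcl1, Cxcl2, Cxcl5 and Cxcr2 included.

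Of the 6 primary granule genes, which are transcribed in marrow promyelocytes, 2 were tested. Bpi and Ms4a3 were at 0 reads in all 6 hearts, which allows up to 3 reads per heart, and Elane and Ctsg were too low to be tested. Mpo had 5.86 to 20.7 normalized counts and Prtn3 had 47.8 to 252, with the highest value of both in miR-19a/19b mimic replicate 3. Of the 13 secondary and gelatinase granule genes, 1 was lower without adjustment and 0 with it, and the median was −0.16. Cyba and Cybb code for the membrane subunits of the oxidase of phagocytes, Adam8 for a surface protease and Itgam for an integrin chain, and these 4, which macrophages express too, had the highest counts of that list. Cybb, the gene below the unadjusted threshold, had 2784, 2994 and 3284 normalized counts in control hearts and 1946, 1893 and 2831 in mimic-injected hearts (log2 fold change −0.46, adjusted p = 0.9996, limma).

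Of the 21 tested receptors and surface proteins of neutrophils, 18 were negative, and Fcgr4, a receptor for antibody complexes, was lower without adjustment (log2 fold change −0.50, adjusted p = 0.9996, limma). Itgb2, C5ar1, Selplg and Clec4d had the highest counts of that list, and their log2 fold changes lay from −0.21 to 0.06. Of the 21 tested cytosolic and secreted genes, 2 were lower without adjustment, Retnlg and Slfn4, and 19 were negative with a median of −0.29. Slfn4, a Schlafen family gene of myeloid cells, had 2087, 2270 and 2303 normalized counts in control hearts and 483, 1268 and 1104 in mimic-injected hearts (log2 fold change −1.34, adjusted p = 0.806, limma). The groups did not overlap for Slfn4 and Fcgr4, which held in the lower direction for 5.3% of all tested genes. Hp (haptoglobin) and Ncf1, an oxidase subunit of the cytosol, overlapped between groups, with log2 fold changes of −0.25 and −0.12.

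Granulopoiesis factors, 9 tested, gave 1 gene higher without adjustment, Cebpe, a transcription factor of late granulocyte precursors (2.93 to 12.1 normalized counts in control and 14.4 to 21.6 in mimic-injected hearts). Beside Csf3r, described above, the factor Cebpd and the receptor genes Csf2rb and Csf2rb2 had the highest counts there, and the log2 fold changes of these 3 lay from −0.33 to 0.28. Csf3, the ligand of Csf3r, had at most 3 reads in any heart. Of the 12 S100 genes and their receptors, 0 were below the unadjusted threshold and the median was −0.06. S100a11, S100a10 and S100a6, which many tissue cells express, and S100a1 had 2534 to 8887 normalized counts. S100a1 had 4304, 3001 and 4355 in control hearts and 5564, 5950 and 2534 in mimic-injected hearts. It was thus lowest in miR-19a/19b mimic replicate 3, as the summed cardiomyocyte genes below were. Of the resistin-like genes, Retnla was the other one tested (5.53 to 19.5 normalized counts).

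Genes of other cell types were followed through the same hearts. All 13 monocyte and macrophage genes were tested, and their summed level was 85329 to 100070 normalized counts in control and 68438 to 104704 in mimic-injected hearts, lowest in miR-19a/19b mimic replicate 1 and highest in replicate 3. That sum was carried by Lyz2, and the mean log2 level of the list was highest in control mimic replicate 2. Of the 13, 3 were lower without adjustment, 0 with it, and the median was −0.26. Ly6c2, a surface protein of inflammatory monocytes, had 818, 748 and 465 normalized counts in control hearts and 148, 268 and 176 in mimic-injected hearts (log2 fold change −1.77, adjusted p = 0.396, limma). Ccr2, the monocyte chemokine receptor, had 2526, 2652 and 2079 in control hearts and 1489, 1593 and 1942 in mimic-injected hearts (log2 fold change −0.53, adjusted p = 0.886, limma). For Ly6c2 and Ccr2 the groups did not overlap, and miR-19a/19b mimic replicate 3 lay below the controls too. Such a gap in the lower direction was seen for 5.3% of all tested genes. Lyz2, C1qa, C1qb and Csf1r had the highest counts of that list, and none of its genes was at 0. Csf3r, S100a8 and S100a9 are also transcribed by monocytes, while Ly6g, the most neutrophil-restricted gene of the 10, was near 0. The 9 T and B cell genes summed to 283 to 343 in control and 228 to 363 in mimic-injected hearts, and the 12 red cell and platelet genes to 6584 to 7155 and 5989 to 7505. The red cell and platelet sum was highest in miR-19a/19b mimic replicate 3 through Pf4, while the mean log2 level of that list was lowest there. The medians were −0.39 for T and B cell genes and −0.38 for red cell and platelet genes, with 1 and 2 genes lower without adjustment. The 5 tested basophil, mast cell and eosinophil genes had a median of 0.05, and their mean log2 level was higher in miR-19a/19b mimic replicate 1 (0.37 above the control mean) than in replicate 3 (−0.10).

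Cardiomyocyte genes ran the other way by heart. All 12 were tested and none was at 0, and they summed to 546548 to 708740 normalized counts in control hearts. In mimic-injected replicates 1, 2 and 3 they summed to 982563, 889942 and 333332. The heart with the lowest sum of the 10 genes thus had the highest cardiomyocyte sum, and the heart with the highest sum of the 10 genes had the lowest. Their median log2 fold change was 0.11, with 1 gene, Nppa, lower without adjustment. The 10 fibroblast and endothelial genes summed to 524137 to 632705 in control and 453581 to 714669 in mimic-injected hearts, with a median of −0.00. The part of monocytes, of blood or of the make-up of the tissue piece in the neutrophil values was not tested.

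**Figure D4:**
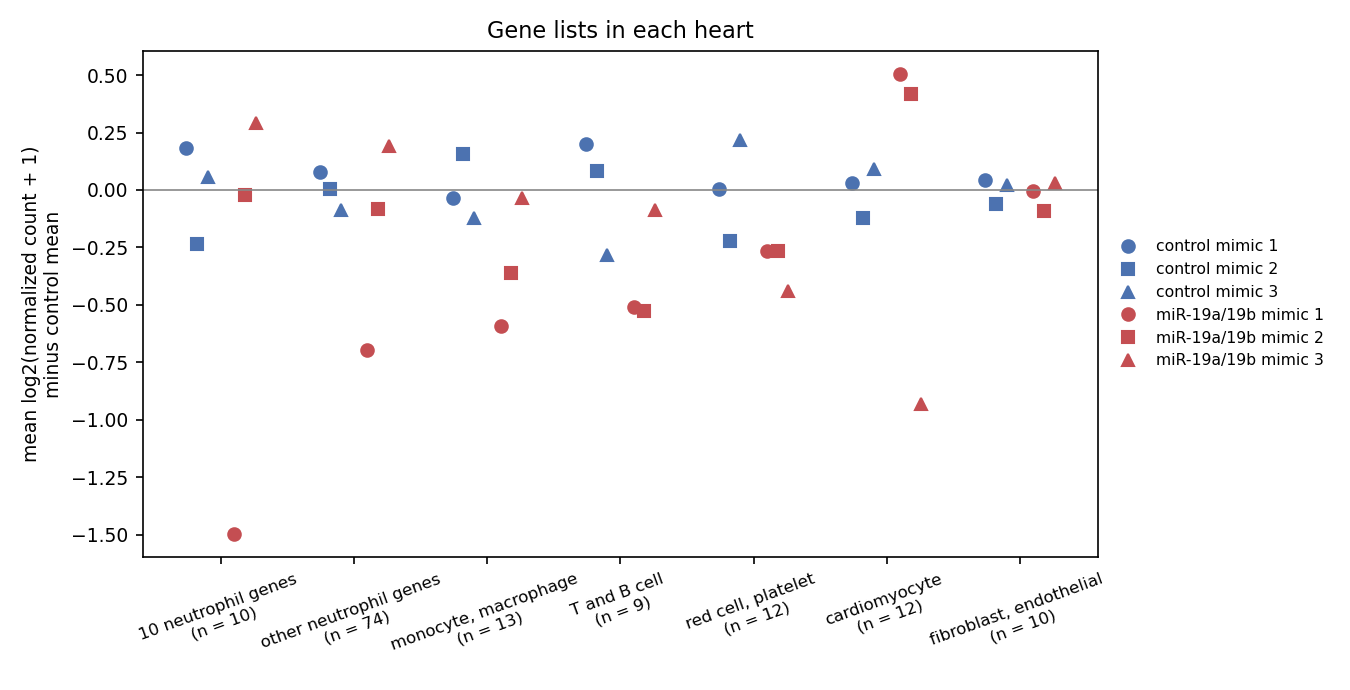
Mean log2(normalized count + 1) of each gene list, minus the mean of the control mimic hearts (vertical axis, log2), in the 3 control mimic hearts (blue) and the 3 miR-19a/19b mimic hearts (red). The list labelled other neutrophil genes pools the neutrophil and pathway lists, which also hold genes of other cells. For the 10 neutrophil genes, miR-19a/19b mimic replicate 1 lies at −1.50 and replicate 3 at 0.29, while for the cardiomyocyte genes the same hearts lie at 0.51 and −0.93.

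The genes most like the 10 in pattern were sought among the 11604 other genes with a mean of at least 100, by Pearson r over the 6 hearts with the mean profile of the 10. Srgn (serglycin, the proteoglycan core of leukocyte granules) came first at r = 0.99, with 1960, 1683 and 1741 normalized counts in control hearts and 1239, 1778 and 1947 in mimic-injected hearts. Tnfaip3, a brake on NF-κB signalling, followed at 0.98, then Pacrgl (0.98), Lgals9, a galectin (0.98), and Tmem128 (0.97). All 5 were lowest in miR-19a/19b mimic replicate 1. In all, 66 genes had r of at least 0.9 and 36 had r of −0.9 or below. The 10 genes themselves ranged from 0.40 (Ngp) to 0.96 (S100a8) against their own mean. With 6 points drawn from the same libraries and selected from so many genes, these values are a description only.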

How the data were processed

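Total RNA was isolated from ventricular tissue, polyadenylated RNA was selected and libraries were sequenced. Per the submitters' processing notes, reads were handled with STAR 2.5.1b, HTSeq 0.6.0 and DESeq2 1.10.1; the study's methods name edgeR for the comparison. The authors deposited a signal per gene and heart, the normalized count, which is the number of reads divided by a size factor that belongs to the library. In each library 100% of values were whole multiples of 1 read (tolerance 0.01), so reads were recovered. The table also holds the authors' own fold changes and p-values, which were not used. The notes name mm9, but 82.68% of the genes found, 9 of the 10 described included, had the same start and end in GENCODE M21 (GRCm38), and coordinates are given as deposited. How strand was counted is not given in the sources used here.

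Groups were taken from the sample labels. Normalized counts plus a pseudocount of 1 were compared on the log2 scale with limma 3.58.1 (trended prior, R 4.3.3), two-sided, over genes with a mean of at least 1, with Benjamini-Hochberg adjustment and a threshold of 0.05. A fold change on this scale understates that of low genes. The scripts were tested on simulated data. Alternatives were edgeR 4.0.16 (quasi-likelihood with TMM, and exact test) and DESeq2 1.42.0 on recovered reads, TMM-scaled values, a pseudocount of 0.1, no filter, a minimum of 10 counts in each heart, a replicate block, and leaving out each heart. Between 19398196 and 23645308 reads per heart set the counting error, which intervals from 3 hearts include. A gene with at most 3 reads in every heart got no fold change.

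The 10 genes and the 14 gene lists were chosen with earlier results of these data known. From each list, the genes named were those called, up to 4 with the highest mean, and those at 0 in every heart; Csf3 and the list genes below the unadjusted threshold were named after their values were seen. Some items of these lists are not reported here. Near-copies were found by aligning transcripts of GENCODE M21 with BLAST.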

Additional observations from a re-analysis of the deposited data

How the results depend on the processing

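With all 6 hearts, the alternatives gave 70 values of the log2 fold change of the 9 genes, 0 of which reversed direction, and 0 of the 10 genes were called under any of them. Only 7 of the 10 genes could be tested with at least 10 counts in every heart. The median of the genes stayed between −0.35 and −0.33 in the limma fits with all hearts and was −0.11 with edgeR's quasi-likelihood test, −0.12 with DESeq2 and −0.12 with edgeR's exact test. Over all genes, DESeq2 called 28 lower and 1 higher, and the exact test 28 lower and 2 higher, with 1 gene of the neutrophil lists (Slfn4) in each. When 1 heart at a time was left out, the calls ranged from 0 to 1 among the 10 genes, from 0 to 7 among the other neutrophil list genes, and over all genes from 0 to 164 lower and from 0 to 383 higher, and each of these upper counts came from the fit that lacked miR-19a/19b mimic replicate 3. In those fits the log2 fold change ranged from −0.46 to 0.27 for Cxcl1, −0.21 to 0.64 for Cxcl2, −0.81 to 0.24 for Cxcl5, −0.71 to 0.24 for Cxcr2, −0.83 to 0.29 for S100a8 and −1.02 to 0.19 for S100a9, so 6 genes changed direction in some fit, 5 of them without miR-19a/19b mimic replicate 1. Retnlg ranged from −2.03 to −0.76, Csf3r from −0.71 to −0.03 and Ngp from −1.81 to −0.41. The cause was not tested. Over all tested genes, same-numbered hearts did not deviate together from their group means (r = −0.0085, −0.021 and −0.11 for replicates 1, 2 and 3). With 3 hearts in a group, these values cannot show whether same-numbered hearts were handled together. With the replicate block, 0 of the 10 genes and 0 genes in all were called. Fewer than 4 reads per heart, as for Ly6g, most hearts for Ngp and 1 heart for Retnlg, set the limit of what could be detected at this depth.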
